A study of Bos taurus with 14 samples.

Results

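Muscle from 3 of 14 young cattle carried raised levels of ISG15, a ubiquitin-like protein made in response to interferon. These 3 animals, called interferon-high, are compared here with the other 11, called interferon-low. The classes were chosen by ISG15 in these same libraries: at least 10 CPM (a gene's read count scaled to a library total of 1000000) placed an animal in the high class, and under 5 CPM in the low class. On that scale ISG15 stood at 16.8 CPM in control animal 7, 11.8 in restricted animal 4 and 36.1 in restricted animal 7. Among the 11 low animals the lowest value was 0.369 CPM, the median 1.11 and the highest 2.99. Restricted 4 was the animal nearest to the limit from inside and control 6 the nearest from outside, and no animal lay between the limits. The question is what else differed in muscle whose interferon-stimulated genes were high.

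The study sampled the longissimus dorsi, the long back muscle, of female offspring at postnatal day 485 (PND485) and sequenced its RNA. Control dams (7 offspring) were fed 100% of their NRC nutrient requirement from gestation day 158 up to calving, and restricted dams (7 offspring) were fed less. The labels give 2 different levels for the restricted diet, so it is named without a percentage. All calves were kept alike after birth and were fed ad libitum from day 301. The high class held 1 control and 2 restricted animals, and the low class 6 control and 5 restricted animals. No label records an infection, a vaccination or any other exposure to interferon, nor how the animals were related. The sample titles carry letters of unstated meaning: all 3 high animals have Y as the first letter, as do 8 of the 11 low animals. Animal numbers are names only and pair no animals.

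Interferons are secreted proteins that cells release when they sense foreign nucleic acid. They bind surface receptors, and kinases of the JAK family then activate STAT proteins, which together with IRF9 switch on a large set of interferon-stimulated genes. The products of those genes block viral entry, degrade viral RNA, attach ISG15 to other proteins and raise the sensing of further nucleic acid. Most cell types can respond, muscle fibres included. In a bulk sample of tissue, a change in the number of cells of a type and a change in the RNA of each cell cannot be told apart.

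All 14 libraries had the make-up of skeletal muscle. ACTA1, skeletal actin, took 3.78% of counts in control 7, 4.32% in restricted 4 and 4.52% in restricted 7, against 3.70% to 5.46% in the low class. MYH1, a fast myosin heavy chain, took 6.11%, 6.33% and 5.20%, against 4.82% to 6.01%. CKM, muscle creatine kinase, took 1.48%, 1.56% and 1.33%, against 1.28% to 1.73%. MYH7, the slow myosin heavy chain, took 0.803%, 0.824% and 1.10%, against 0.803% to 1.54%. Library totals ran from 13631018 to 17325779 reads. Exact two-sided permutation of the class within each diet group (147 arrangements, smallest possible p 0.0068) gave p = 0.469 for total counts, p = 0.265 for the number of detected genes and p = 0.0748 for the MYH7 share. Over the 8 library measures the smallest adjusted p was 0.598.

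Few genes passed the threshold between the classes, and those that did were mostly interferon genes and nearly all higher in the high class. Of 12187 genes tested by edgeR's quasi-likelihood test with diet as covariate, 58 (0.476%) passed an adjusted p of 0.05. Of these, 56 (0.46% of genes tested) were higher in the high class and 2 (0.0164%) were lower. Interferon lists held 43 of the 58, all higher, with ISG15 itself, which chose the classes, among the 43. The median log2 fold change of all genes was -0.001. The count was 96 with DESeq2 (77 higher and 19 lower, 49 of them outside the interferon lists), and 46 to 62 with each animal left out in turn. Because ISG15 chose the classes, p-values here compare the classes with the spread between these animals and measure no treatment. They are not given for genes of the interferon lists or for others named below as linked to interferon. At an unadjusted p under 0.05 there were 442 genes higher (3.63%) and 503 lower (4.13%), 945 in all, where 609 would be expected with no difference at any gene. All 3 high animals stood above all 11 low animals for 94 genes (0.771%), and below all of them for 80 genes (0.656%). Of the 94, 44 were in the interferon lists and 50 were not. All 80 lower genes were outside the lists, as were 12070 of the 12187 genes tested.

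The interferon-stimulated genes come first. Their counts past the threshold describe classes that ISG15 defined, and nothing is read from them as a test. The lists of interferon genes held 163 symbols, of which 132 had a row in the table and 117 had enough reads to be tested. Of the 117, 101 had a positive fold change, 43 passed the threshold, ISG15 included, and 74 did not. The 16 rows of listed genes under the read filter are not counted among these.

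Antiviral effectors made up the largest block, with 23 of 44 tested members past the threshold and a list median of 1.10 log2. MX1, a GTPase that traps viral nucleocapsids, was at 46.8 CPM in control 7, 38.6 in restricted 4 and 83.4 in restricted 7 (here and below, CPM are scaled by TMM). In the low class MX1 ran from 2.52 CPM through a median of 3.57 to 8.99, so the groups did not overlap, and the fitted ratio was 13.8-fold. Its relative MX2 had the largest fitted ratio of any interferon gene, 30.1-fold, at 21.5, 9.19 and 55.2 CPM against 0.362, 0.904 and 2.14 (lowest, median and highest of the low class).

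RSAD2, or viperin, which makes a chain-terminating nucleotide, was at 27.0, 14.3 and 83.5 CPM in control 7, restricted 4 and restricted 7. The low animals ran from 1.27 through 3.09 to 6.73 CPM, a ratio of 13.3-fold. IFIT1, which binds foreign RNA ends, was at 10.9, 8.91 and 25.8 CPM against 0.483, 0.952 and 2.51 in the low class, a ratio of 12.6-fold. For both genes restricted 7 stood far above the other high animals, and even restricted 4, the lowest of the high class, stood above every low animal. OAS1X, 1 of 3 bovine copies of an enzyme that activates RNase L, kept another order: 25.0 CPM in control 7, 39.7 in restricted 4 and 61.7 in restricted 7, against 0.945, 2.76 and 9.42. The ratio of OAS1X was 13.6-fold. Reads of the OAS1 copies could be split among them, so their separate values are uncertain. The most abundant genes of the list, GMPR, a GMP reductase, and CNP, a myelin and RNA-processing enzyme, did not pass, with ratios of 0.841 and 1.10.

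**Figure D1:**
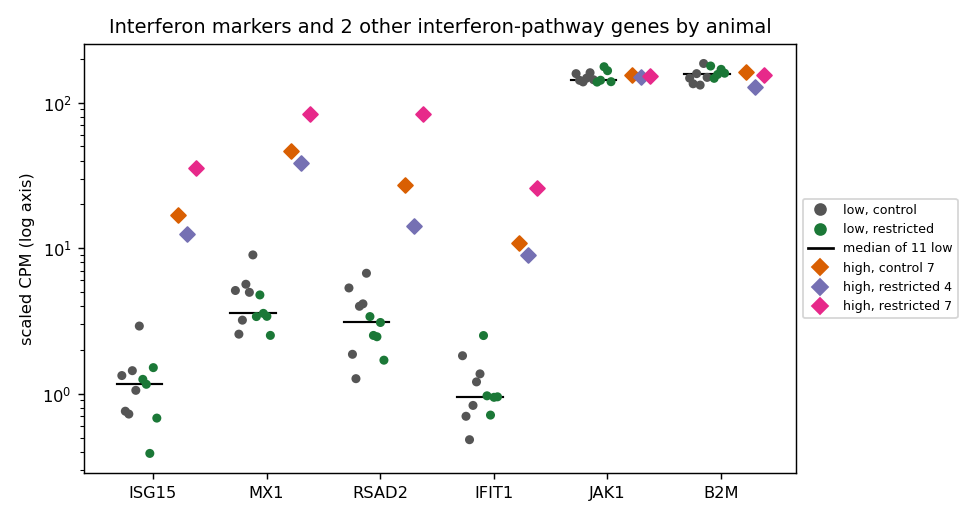
Scaled CPM on a log axis in each of the 14 animals for ISG15, MX1, RSAD2 and IFIT1, and for JAK1 and B2M. Round points are low animals, diamonds the 3 high animals and the bar is the median of the 11 low animals. The first 4 genes separate the classes with no overlap, while JAK1 and B2M overlap.

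In the list of ubiquitin-like and related genes built around ISG15, 10 of 13 tested members passed, with a median of 1.90 log2. The list is wider than the transfer of ISG15 and holds PARP14, PARP11 and TRIM26 as well. ISG15 is 1 of the 10, and its ratio of 18.4-fold was set by the choice of classes. UBA7, the enzyme that activates ISG15 for transfer, was at 28.6, 17.1 and 51.0 CPM in the 3 high animals against 4.69, 7.20 and 13.7 in the low class, a ratio of 4.51-fold without overlap. HERC6, a ligase of the family that attaches ISG15, was at 21.2, 14.1 and 30.8 CPM against 2.05, 3.14 and 5.66, a ratio of 7.14-fold. USP18, the protease that removes ISG15, was 3.72-fold higher. PARP14, an ADP-ribosyl transferase, was at 19.2, 14.1 and 26.3 CPM against 2.54, 4.38 and 6.31, or 4.51-fold. The members that did not pass were PARP11 (1.01-fold), TRIM26 (1.003-fold) and the conjugating enzyme UBE2L6 (1.13-fold).

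Sensors of foreign nucleic acid were among the higher genes, and no receptor or kinase upstream of them passed. In the list of sensors and signalling genes 7 of 31 tested members passed, with a median of 0.16 log2 (0.10 without restricted 7 and 0.27 without restricted 4). DHX58, an RNA helicase of the RIG-I family, was at 4.27, 2.14 and 9.34 CPM against 0.516, 0.875 and 1.79 in the low class, a ratio of 5.73-fold. IFIH1, or MDA5, a sensor of long double-stranded RNA, was at 7.67, 6.98 and 13.1 CPM against 1.45, 2.50 and 3.39, a ratio of 3.62-fold. IRF7, a transcription factor that amplifies interferon production, was at 6.16, 2.63 and 9.23 CPM against 0.408, 1.04 and 1.51, a ratio of 5.97-fold.

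STAT2, a transcription factor activated by the interferon receptor, was at 4.09, 7.05 and 12.3 CPM against 3.54, 6.31 and 12.9, a ratio of 1.14 (interval 0.669 to 1.95). Its partner IRF9 was higher in each high animal, at 16.2, 17.2 and 15.96 CPM against 5.98, 8.63 and 11.3, a ratio of 1.95-fold. The kinase JAK1 had a ratio of 1.01 (interval 0.888 to 1.14). The receptor chains IFNAR1 and IFNAR2 had ratios of 0.99 (0.815 to 1.202) and 1.24 (0.937 to 1.65).

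Interferons themselves were close to unmeasured in these libraries. Of the 10 symbols in the ligand list, 2 had a row among the counts, and 0 passed the read filter. The other symbols had no row, so their reads are not known. Rows described as interferon gamma and interferon kappa held 3 reads each over all 14 animals, and a row described as interferon omega-1 held 2. Which interferon the muscle had met was therefore not measured.

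Genes known for their response to interferon gamma all had a positive fold change, but most did not pass. In this list 3 of 11 tested members passed, GBP4, GBP5 and IDO1, with a median of 0.43 log2. Further guanylate-binding rows without a symbol passed and are given below. GBP4, a guanylate-binding GTPase, was at 5.28, 5.80 and 4.13 CPM against 0.259, 1.05 and 2.16 in the low class, a ratio of 5.02-fold. GBP5, which takes part in inflammasome assembly, was at 7.35, 3.80 and 10.1 CPM against 1.16, 2.20 and 3.01, a ratio of 3.28-fold. IDO1, which starts the breakdown of tryptophan to kynurenine, was at 25.5, 21.8 and 35.9 CPM against 2.90, 8.75 and 14.6, a ratio of 3.09-fold. The call of IDO1 held in 18 of 30 alternative analyses, and in 6 of the 14 fits with an animal left out. All 3 genes separated the classes. The most abundant members, LAP3, an aminopeptidase, and WARS, the tryptophanyl-tRNA synthetase, had ratios of 1.07 (0.926 to 1.25) and 1.28 (1.04 to 1.58), and both overlapped.

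The MHC class I pathway, which presents peptides of the cell's own proteins and is induced by interferon in many tissues, had 0 of 18 members past the threshold. Its median was 0.03 log2. B2M, the light chain of class I molecules, was at 161, 128 and 156 CPM against 132, 156 and 186 in the low class, a ratio of 0.946 (interval 0.808 to 1.11). A class I heavy chain, BOLA, had a ratio of 0.986 (0.672 to 1.45). Other class I rows of the list went both ways. A row described as BOLA-A had a ratio of 0.697 (0.474 to 1.02), JSP.1 0.788 (0.468 to 1.33) and BOLA-NC1 1.05 (0.762 to 1.46). TAP2, a subunit of the peptide transporter, had a ratio of 1.43 (1.12 to 1.81), and PSMB9, a subunit of the immunoproteasome, 1.36 (0.904 to 2.05). Summed over the list, the level was 765, 696 and 744 CPM in the high animals against 666, 754 and 874 in the low class. A class I row without a symbol, outside the list, had all 3 high animals above the low class (ENSBTAG00000038619, 17.0, 20.5 and 24.5 CPM against 5.68, 11.4 and 15.5) and did not pass the threshold. Class I genes vary between animals and share sequence, so reads could be split among their rows.

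The 3 high animals kept a common order over the interferon genes. Among the 43 genes past the threshold, restricted 7 was the highest of the 3 for 39 genes and restricted 4 the lowest for 40. Relative to the median of the low class, the median ratio over those genes was 4.13 in control 7, 2.77 in restricted 4 and 5.76 in restricted 7. Control 6 was the highest low animal for 22 of the 43 genes, with a median ratio of 1.38, and control 3 the lowest for 16, with a median ratio of 0.688.

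**Figure D2:**
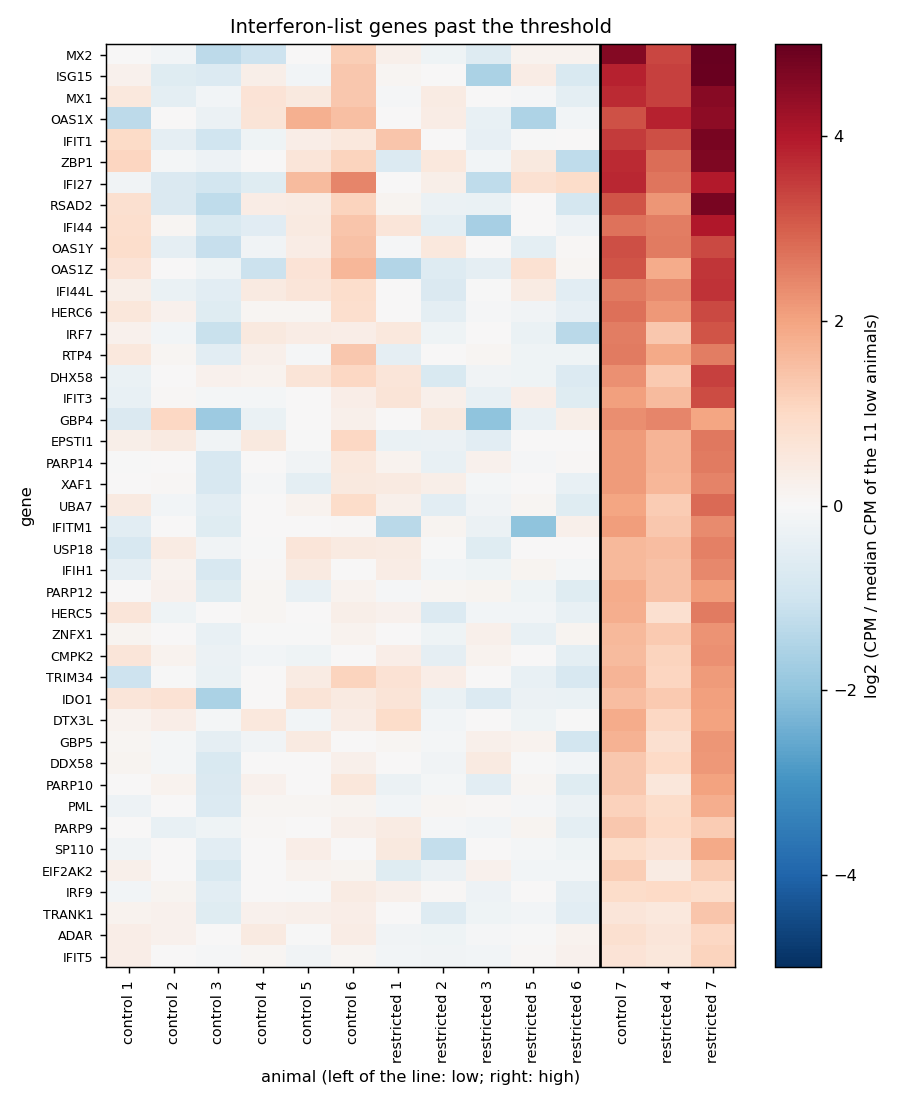
Rows are the 43 interferon-list genes past the threshold and columns the 14 animals, low to the left of the line and high to the right. Colour gives log2 of an animal's CPM over the median of the 11 low animals; the column of restricted 7 is the darkest for most genes, and control 6 stands out among the low animals.

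Outside the interferon lists 15 of 12070 genes passed (0.124%), 13 higher and 2 lower. Of the 15, 8 had no symbol, but their descriptions name genes of the interferon response. RNF213, a giant ubiquitin ligase (ENSBTAG00000022489), was at 33.1, 22.4 and 55.5 CPM against 3.50, 6.71 and 10.3 in the low class, a ratio of 5.62-fold. Bone marrow stromal antigen 2, or tetherin, which holds budding virus at the membrane (ENSBTAG00000053806), was 6.25-fold higher, and interferon gamma inducible protein 16, a DNA sensor (ENSBTAG00000011511), 3.01-fold. A further 4 rows are described as guanylate-binding proteins, and their ratios ran from 2.48-fold (ENSBTAG00000038625) to 4.78-fold (ENSBTAG00000038233). A row described as apolipoprotein L3-like was 1.60-fold higher (ENSBTAG00000037799), and it passed in 2 of the 14 fits with an animal left out. The 2 APOL3 rows in the interferon lists did not pass and went opposite ways. Their ratios were 0.486 (0.280 to 0.844) and 1.43 (0.935 to 2.18). Near-identical GBP copies may share reads.

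Of the 7 genes then left, 3 have known links to interferon and are given without a p. LGALS9 encodes galectin 9, a sugar-binding protein that regulates immune cells. It was at 20.9, 16.5 and 26.1 CPM in control 7, restricted 4 and restricted 7 against 8.31, 9.80 and 12.7 in the low class. The groups did not overlap, and the LGALS9 ratio was 2.06 with a 95% interval of 1.68 to 2.53. SP140L, a nuclear body protein, was at 4.09, 4.56 and 5.38 CPM against 1.57, 2.19 and 3.09, a ratio of 2.16 (1.67 to 2.81). A second row of the same symbol, SP140L at ENSBTAG00000009664, had a ratio of 1.69 and did not pass. PLSCR2, described in the table as phospholipid scramblase 1, a membrane lipid transporter, was at 7.98, 6.35 and 10.1 CPM against 2.72, 4.22 and 5.37, a ratio of 2.01 (1.52 to 2.64).

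Just 4 genes remained that are not known for a response to interferon, 2 higher and 2 lower. FGB, the beta chain of fibrinogen, a clotting protein made mainly by liver, was at 2.33, 2.28 and 7.75 CPM against 0.544, 1.10 and 1.79 in the low class. The FGB ratio was 3.47 (2.07 to 5.82; edgeR adjusted p = 0.026), all 3 high animals stood above the low class, and restricted 7 stood far above the others. GALNT15, an enzyme that starts O-linked glycosylation, was at 4.21, 2.21 and 1.25 CPM against 0.451, 1.13 and 2.05. The GALNT15 ratio was 2.50 (1.65 to 3.77; edgeR adjusted p = 0.0498), and restricted 7 lay inside the range of the low class.

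AHDC1, a DNA-binding protein with AT-hook motifs, and FBXW5, the substrate receptor of a ubiquitin ligase, were the 2 genes that fell. AHDC1 was at 45.5, 36.3 and 44.4 CPM against 52.1, 60.7 and 68.0 in the low class, a ratio of 0.699 (0.610 to 0.802; edgeR adjusted p = 0.0108). FBXW5 was at 74.3, 62.3 and 70.5 CPM against 81.5, 100.8 and 114, a ratio of 0.706 (0.612 to 0.813; edgeR adjusted p = 0.0211). For both genes every high animal lay below every low animal.

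These 4 calls depended on the adjustment, on the model and on single animals. With p-values adjusted over the 12070 genes outside the interferon lists alone, 8 of the 15 passed and none of the 4 did: edgeR's adjusted p became 0.109 for FGB, 0.191 for GALNT15, 0.057 for AHDC1 and 0.0949 for FBXW5. Without restricted 4, AHDC1 and FBXW5 both missed the threshold, and FBXW5 also missed it without control 7 or without restricted 7. FGB missed it without restricted 7 and without each of 3 low animals, restricted 2, 3 and 5, and GALNT15 without each of 10 animals. With ISG15 as a continuous covariate, AHDC1, FBXW5 and GALNT15 missed the threshold. FGB and GALNT15 missed it with the first title letter as a further covariate, and also among animals with first letter Y alone.

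The next genes in the lower direction, ZNF703, LONRF3 and CASKIN2, did not pass. ZNF703, a transcriptional repressor, was at 8.30, 6.91 and 6.05 CPM against 8.52, 11.4 and 11.9, a ratio of 0.66 (0.545 to 0.799; edgeR adjusted p = 0.0581). LONRF3, a RING finger protein, had a ratio of 0.652 (0.529 to 0.803; edgeR adjusted p = 0.0886) and CASKIN2, a scaffold protein, 0.74 (0.638 to 0.858; edgeR adjusted p = 0.0900). High and low animals did not overlap for these 3 genes.

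**Figure D3:**
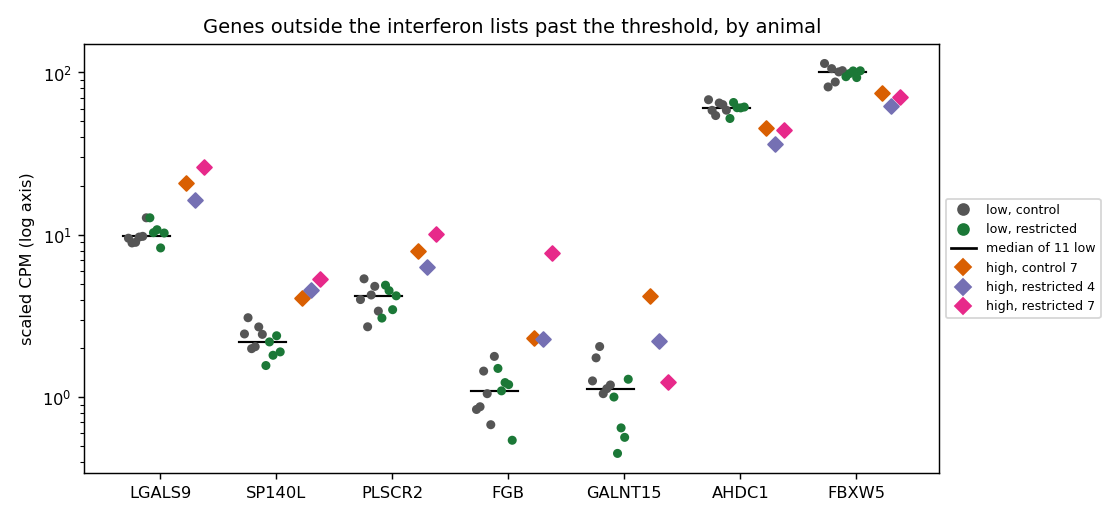
Scaled CPM on a log axis in each of the 14 animals for the 7 genes with a symbol that passed the threshold outside the interferon lists. Diamonds are the 3 high animals, round points the low animals and the bar their median. GALNT15 alone overlaps between the classes, and AHDC1 and FBXW5 are the 2 genes with the diamonds below.

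Muscle fibre genes showed no call. None of the 19 tested fast fibre genes passed (median 0.07 log2, 17 positive), nor any of the 18 slow fibre genes (median -0.26, 1 positive; -0.46 without restricted 7 and -0.17 without control 7). MYH1 had a ratio of 1.09 (0.922 to 1.28), MYH2, a fast oxidative myosin, 0.838 (0.628 to 1.12), and MYH7 0.773 (0.581 to 1.03). Slow fibre genes summed to 38950, 43540 and 47860 CPM in the high animals against 34950, 51620 and 62560 in the low class, inside that range. MYH4, the fastest myosin, varied so widely that nothing could be read from it: 21.8, 751 and 23.8 CPM against 20.3, 31.4 and 759 (ratio 0.996, interval 0.13 to 7.61).

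Repair and wasting genes gave no call. Of 18 tested satellite cell and regeneration genes, 7 were positive, the median was -0.20 log2 (-0.35 to -0.15 over the scalings and the animals left out), and 2 were lower at an unadjusted p under 0.05. PAX7, the marker of satellite cells, the stem cells of muscle, had a ratio of 1.03 (0.624 to 1.71). MSTN, or myostatin, a brake on muscle growth, had a ratio of 1.29 (0.96 to 1.74). FBXO32 and TRIM63, the ubiquitin ligases of muscle atrophy, had ratios of 1.03 (0.702 to 1.51) and 1.02 (0.816 to 1.27). Among proteasome genes 31 of 32 had a positive fold change, yet the median was 0.06 log2, 3 had an unadjusted p under 0.05 and none passed. PSMD2 and PSME4, the most abundant, had ratios of 1.06 (0.931 to 1.21) and 1.08 (0.932 to 1.24).

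Metabolic genes gave no call apart from IDO1. The 55 oxidative phosphorylation and citric acid cycle genes had a median of 0.00 log2 with 29 positive, the 27 glycolysis and glycogen genes 0.06 with 18 positive, and the 55 ribosomal proteins -0.01 with 27 positive. None of these genes passed. Of 29 fatty acid oxidation genes 10 were positive (median -0.02). Of 21 fatty acid synthesis genes 16 were positive and 3 were higher at an unadjusted p under 0.05. Their median of 0.21 log2 rested on single animals, at -0.10 without restricted 7 and 0.45 without restricted 4. PDK4, which switches muscle from glucose to fat, was at 23.5, 547 and 50.1 CPM against 33.2, 74.0 and 1205, a ratio of 0.703 (0.163 to 3.05). SCD, a fatty acid desaturase, was at 478, 148 and 1064 CPM against 69.3, 336 and 396, and the ratio of 1.72 (0.929 to 3.20) missed the threshold. In the list of NAD, kynurenine and nucleotide enzymes 1 of 13 tested members passed, IDO1, already given as an interferon gene whose call depended on single animals.

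Markers of immune cells gave no call. Of 20 macrophage and monocyte markers 16 could be tested; 15 had a positive fold change, the median was 0.48 log2, 4 had an unadjusted p under 0.05 and 0 passed. Summed, these macrophage genes stood at 57.0, 38.5 and 70.1 CPM in control 7, restricted 4 and restricted 7 against 27.5, 39.1 and 58.9 in the low class. Restricted 7 therefore lay above the range of the low class and the other high animals inside it. CD163, a scavenger receptor of tissue macrophages, had a ratio of 1.52 (0.765 to 3.0). PTPRC, or CD45, carried by all white blood cells, was at 5.59, 2.07 and 7.02 CPM against 1.47, 3.26 and 6.73, a ratio of 1.27 (0.737 to 2.20). No marker of the macrophage list was at 0 in all animals. MHC class II genes, carried by cells that present antigen, had 0 of 8 tested members past the threshold, a median of 0.10 log2 and a sum of 348, 298 and 322 CPM against 228, 298 and 582.

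Lymphocyte and blood markers gave less to measure. Of 20 T and NK cell genes with a row, 7 passed the read filter, and their list sum was 16.03, 5.66 and 20.6 CPM against 5.82, 11.2 and 21.7. The T cell sum of restricted 4 lay just under the lowest value of the low class. Of the 20 genes, 13 had too few reads to be tested, so this ranking rests on few reads. B and plasma cell markers, 2 tested, summed to 28.8, 24.0 and 25.3 CPM against 21.2, 25.98 and 31.4. HBB, beta globin from red cells, was at 2.20, 2.07 and 1.13 CPM against 0.068, 1.03 and 19.2. The part of white cells in the interferon signal was not tested.

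Connective tissue and fat genes leaned upward without a call. All 16 fibroblast genes had a positive fold change (median 0.33 log2), as did 29 of 37 matrix genes (median 0.28) and 14 of 16 adipocyte genes (median 0.59). None passed, and at an unadjusted p under 0.05 there were 6, 9 and 1 members, all positive. Without restricted 7 the matrix median was 0.10 and the adipocyte median 0.06, and without restricted 4 the adipocyte median was 0.92. COL1A1, a chain of type I collagen, was at 103, 77.8 and 168 CPM against 45.4, 60.2 and 131 in the low class, a ratio of 1.63 (1.03 to 2.58). COL3A1, type III collagen, was at 294, 206 and 518 CPM against 137, 213 and 412, a ratio of 1.41 (0.934 to 2.14). FABP4, a fatty acid carrier of adipocytes, was at 52.9, 17.3 and 69.0 CPM against 2.92, 28.0 and 69.2, a ratio of 1.77 (0.808 to 3.88). The classes overlapped for all 3 genes.

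Among the lists with no call, complement and clotting genes held the smallest adjusted p. Of 18 tested members 15 were positive (median 0.33 log2), 7 had an unadjusted p under 0.05, all positive, and 0 passed. It belonged to CFI, complement factor I, a protease that inactivates complement, at 1.01, 1.45 and 3.06 CPM against 0.151, 0.567 and 0.884, a ratio of 2.93 (1.74 to 4.94; edgeR adjusted p = 0.0875). C4A, a complement component, was at 6.85, 7.25 and 7.70 CPM against 2.27, 3.79 and 6.05, a ratio of 1.86 (1.32 to 2.61; edgeR adjusted p = 0.18). High and low animals did not overlap for CFI and C4A. The 2 most abundant genes of the list, CD59 and SERPING1, both inhibitors of complement, had ratios of 1.11 (0.959 to 1.29) and 1.30 (1.03 to 1.64). Whether any of these complement genes were higher as part of the interferon response was not tested.

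In the opposite direction leaned the immediate early genes, which are switched on within minutes of a stimulus. Of 22 tested, 2 were positive, the median was -0.56 log2, and 9 had an unadjusted p under 0.05, all negative. None passed, with a smallest edgeR adjusted p of 0.404. FOS, a subunit of the AP-1 factor, was at 75.5, 127 and 176 CPM against 114, 251 and 490, a ratio of 0.497 (0.273 to 0.903; edgeR adjusted p = 0.555). NR4A1, a nuclear receptor, was at 149, 199 and 148 CPM against 155, 212 and 352, a ratio of 0.71 (0.493 to 1.02). Both genes overlapped between the classes. Heat shock genes leaned the same way, with 2 of 26 positive, a median of -0.18 log2 and 0 past the threshold. CRYAB, a small heat shock protein of muscle, had a ratio of 0.768 (0.616 to 0.959; edgeR adjusted p = 0.549), and HSPA8 0.93 (0.743 to 1.17). Time from slaughter to sampling and handling are not in the labels, so their part in these 2 lists was not tested.

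**Figure D4:**
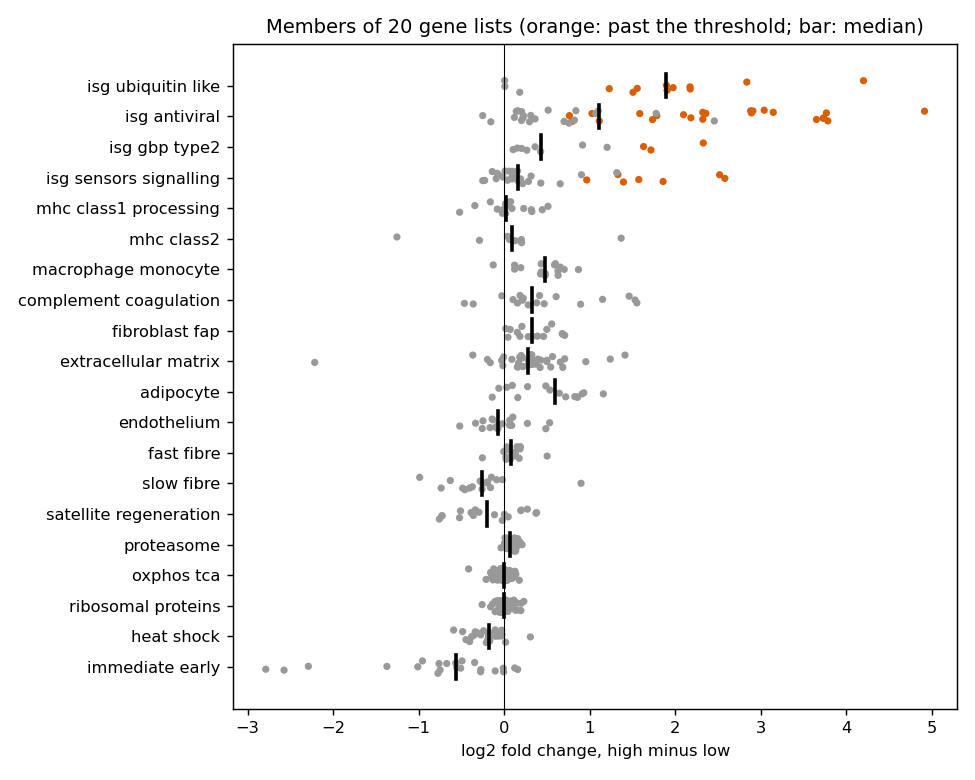
Log2 fold change (high minus low) of each tested member of 20 gene lists, with the list median as a bar and members past the threshold in orange. Orange points occur in the 4 upper interferon lists and in no other list drawn; immediate early genes lie mostly left of 0 and macrophage, fibroblast and adipocyte genes mostly right of it.

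The precision bounds what could be missed outside the interferon lists. Of 12070 genes, 10772 (89.2%) had a 95% interval that lay within a 2-fold difference in either direction, and 7904 (65.5%) within 1.5-fold. These intervals cover the spread between these animals. Whether the difference between classes itself differed by maternal diet was tested as an interaction: 0 genes passed in edgeR, with 536 at an unadjusted p under 0.05 and a smallest adjusted p of 0.818. The control arm of that test holds 1 high animal.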

How the data were processed

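RNA of longissimus dorsi from 14 animals was sequenced; the deposited values are raw read counts per gene, not normalized by the authors. Per the submitters' processing notes the tools were FastQC, HISAT2, featureCounts and edgeR with the build ARS-UCD1.2. The sources used here do not give their versions or roles, the annotation, whether counting used strand, or how multiply aligned reads were treated. Overlapping or antisense genes therefore cannot be separated, and paralogs (OAS1, GBP, MX, IFIT and MYH genes) may share reads. Gene names come from the deposited table, because 0 of its identifiers matched the reference table of assembly ARS-UCD2.0, and no coordinates are given.

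The test used edgeR 4.0.16 under R 4.3.3. The filter filterByExpr with both diet groups (minimum count 10, minimum total 15) left 12187 of 18078 rows, of which 193 held no read. Scaling was by TMM, edgeR's trimmed mean of M-values. The quasi-likelihood F test compared the classes with diet as covariate, with Benjamini-Hochberg adjustment over all genes and a threshold of 0.05. Ratios are fitted fold changes, high over low, with 95% intervals. The common coefficient of biological variation was 0.18, and depth was 13631018 to 17325779 reads per animal. Each sample is 1 animal. Alternatives were other scalings, filters, DESeq2 1.42.0, limma 3.58.1 with voom, other covariates, subsets, ISG15 as a continuous covariate and each animal left out in turn. The fit was tested on simulated data.

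The classes, the 49 gene lists and the tests were chosen with earlier results of these data known. The genes named were the 4 markers ISG15, MX1, RSAD2 and IFIT1, the 2 most abundant members and the 3 with the largest ratio of each interferon list, up to 12 genes with the smallest p in each direction outside them (5 where fewer than 5 passed), the called or 2 most abundant members of each other list, and 14 genes always named, such as MYH7 and PAX7. The genes without a symbol, USP18, TRIM26, UBE2L6, STAT2, IRF9, IFNAR1, IFNAR2, CFI and C4A were added after their values were seen. The same holds for the BOLA-A row, JSP.1, BOLA-NC1 and the APOL3 rows. A planned search of promoters for interferon response motifs was not run, and promoter sequences were not used here.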

Additional observations from a re-analysis of the deposited data

Results flagged for a closer look

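Within the low class, 20 sets of values (each of 10 genes within each diet group) were examined for an animal far from the others, and 2 had one; chance gives about 1 in 20. ISG15 was not examined, since it chose the classes. Control 6, the low animal nearest to the limit of the high class, was apart from the other 5 low control animals for LGALS9, at 12.7 scaled CPM against 9.80 for the next. Restricted 1 was apart from the other 4 low restricted animals for IFIT1, at 2.51 scaled CPM against 0.967 for the next. In both cases the value was still below that of every high animal.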

How the results depend on the processing

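The count of genes past the threshold, 58 in all and 15 outside the interferon lists, depended most on the filter, the tool and the animals used. It was 95 and 49 with no filter on low counts, 12 and 4 among genes with a mean of at least 10 CPM, 96 and 49 with DESeq2, 19 and 3 in restricted animals only, and 11 and 2 in control animals only, where the high class is 1 animal assumed to vary like the others. DESeq2 put 77 genes higher and 19 lower. Under 2 alternatives chosen after the data were seen, the count outside was 7 when descriptions were also matched and 8 when adjusted outside the lists alone. Leaving out each animal in turn gave 46 to 62 genes and 11 to 18 outside. Over these 14 fits, 33 of the 43 interferon genes and 5 of the 15 others passed every time; 13 and 1 passed in every alternative that tested them, 27 to 30 alternatives a gene. The other alternatives (scalings, class-based filter, voom, covariates, first letter Y only, continuous ISG15) kept both counts within 1.5 times. Single genes, FGB, GALNT15, AHDC1 and FBXW5 among them, still missed the threshold in some of these. No named gene turned its direction while called. No paired analysis was possible because animal numbers only follow the order of the samples.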
